A study of Mus musculus with 6 samples.

Results

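Hyaluronan is a long, unsulfated sugar polymer that fills the matrix around cells and, together with the glycoprotein lubricin, coats the gliding surfaces of tendons and joints. The transcripts described here come from 9 genes: the hyaluronan synthases Has1, Has2 and Has3, the hyaluronidases Hyal1 and Hyal2, Cemip, whose protein is needed for hyaluronan depolymerization, the receptor gene Cd44, Tnfaip6, which codes for the hyaluronan-binding protein TSG-6, and Prg4, which codes for lubricin. They were chosen by gene symbol, and 9 of 9 were found among the 21878 genes of the deposited count table. All 9 passed the filter on low counts.

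RNA was sequenced from soft tissue at the mouse Achilles tendon in 2 groups of 3 libraries. The sham libraries (titled Control1 to Control3, here sham 1 to 3) had the treatment sham, and the cut-tendon libraries (titled HO1 to HO3, here cut 1 to 3) had Achilles tendon amputation. The series title places them in a study of trauma-induced heterotopic ossification, in which bone forms in soft tissue after injury. Strain, sex, age and the time between surgery and sampling are not given in the sources used here. Whether the libraries of a group stand for separate animals is not stated either, so p-values measure the spread of these samples, which could be technical.

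The synthases sit in the plasma membrane and join UDP-glucuronic acid to UDP-N-acetylglucosamine, pushing the growing chain out of the cell. HYAL2 at the cell surface and HYAL1 in lysosomes cut the polymer, and CEMIP acts apart from them. CD44 is a main cell-surface receptor for hyaluronan, TSG-6 transfers protein chains onto it, and lubricin is secreted by the cells that line joints and tendon sheaths.

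The libraries held 23916839 to 31346730 counts. A list of 30 skeletal muscle genes took 19.8 to 22% of counts in the sham libraries, but 1.71% in cut 1, 0.56% in cut 2 and 16.2% in cut 3, so that in muscle content cut 3 stood near sham. Of the 8 tenocyte markers 5 were called higher, and the list summed to 4135 to 10118 CPM (counts scaled to library size by the TMM method) in sham and 40255 to 103458 CPM in cut tendon, most of it Col1a1. Macrophage markers summed to 358 to 455 CPM in sham and 1079 to 1336 CPM in cut tendon, with 11 of 12 called higher. In such bulk tissue, fewer cells of a type and less RNA per cell cannot be told apart.

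Has2, Cemip, Cd44 and Tnfaip6 rose in cut tendon, by 2.18-fold, 17.1-fold, 3.03-fold and 4.43-fold. Has1, Has3, Hyal1, Hyal2 and Prg4 were not called. A gene was called where edgeR's quasi-likelihood test gave it a Benjamini-Hochberg adjusted p under 0.05 over all 14561 tested genes. The 4 of 9 members called higher stand beside 20.4% of all tested genes called higher, and the 0 of 9 called lower beside 12.3%. At an unadjusted p under 0.05, 5 members were higher and 1 lower, against 26.5% and 20.6% of tested genes. Every cut-tendon library lay above every sham library for 4 members and below for 1 (Has3), against 28.7% and 26.1% of tested genes. The median log2 fold change was 1.12 over the 9 members and -0.02 over all tested genes. The members were chosen with earlier results of these data known, so these shares and medians are descriptions and not a test.

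**Figure D1:**
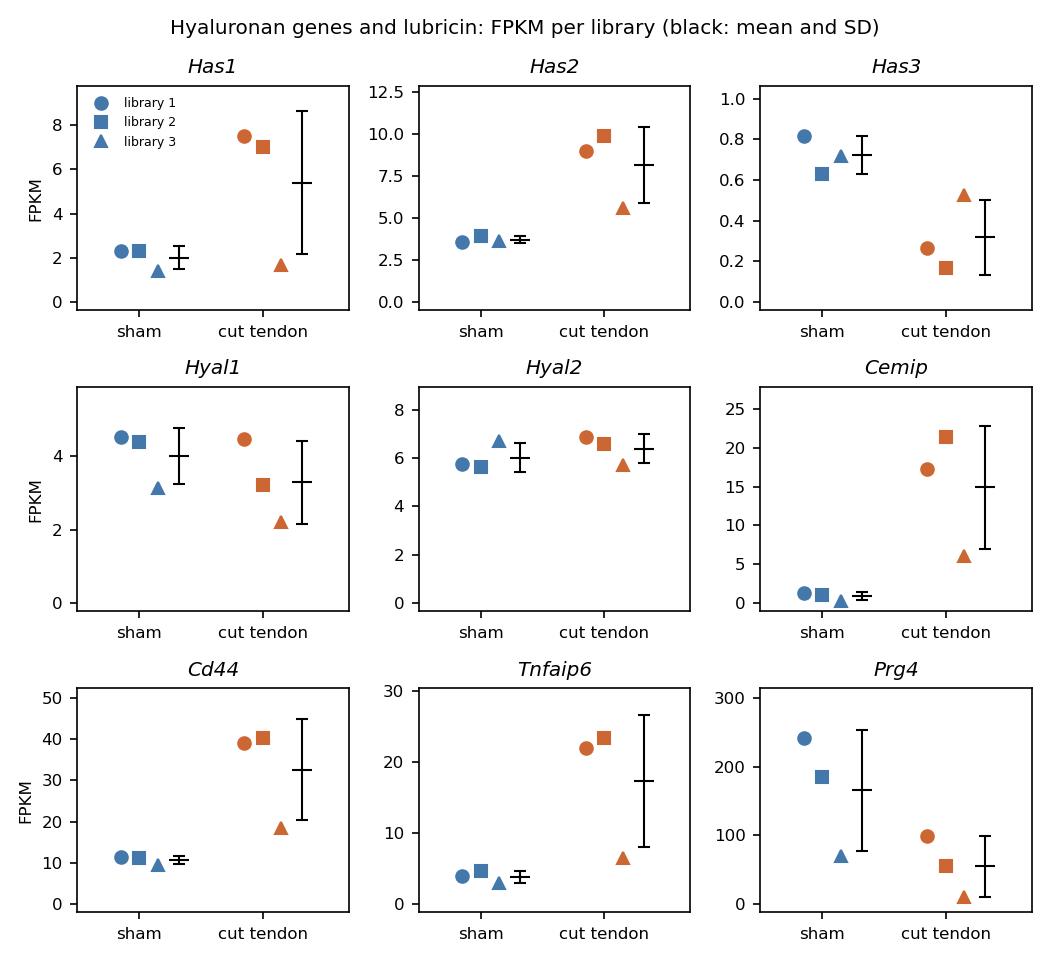
FPKM (a level scaled to library depth and transcript length) of the 9 genes in each library, with a separate axis for each gene; colours are the groups, symbols the replicate numbers, and black bars the mean and SD of 3 libraries. For Has2, Cemip, Cd44 and Tnfaip6 all cut-tendon points lie above the sham points, and cut 3 (triangle) is the lowest cut-tendon point.

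Among the synthases, Has2, the isoform that embryonic development depends on, was the one that was called, and it had the highest FPKM of the 3 in every library. Has2 stood at 14.9, 16.7 and 15.9 CPM in sham libraries 1 to 3 and at 35, 43.5 and 24.9 CPM in cut libraries 1 to 3. The groups did not overlap, and the sham libraries lay close together. The log2 fold change was 1.12 ± 0.21 (SE, n = 3 per group; adjusted p = 0.0121 by edgeR). The call was lost without sham 1 (log2 1.08, adjusted p = 0.0501), sham 2 (1.14, 0.0524) or sham 3 (1.09, 0.0501).

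Has1, a synthase known to respond to inflammatory signals, was high in 2 of the 3 cut-tendon libraries. Its levels were 6.21, 6.32 and 4.01 CPM in the sham libraries and 19, 20.1 and 4.9 CPM in the cut libraries, in replicate order. Cut 3 thus lay within the sham range, and the log2 fold change of 1.41 ± 0.52 was not called (adjusted p = 0.081 by edgeR). With the replicate number as a block it was called (log2 1.22, adjusted p = 0.0483), and likewise without cut 3 (1.83, adjusted p = 0.000224). With the muscle level of each library as a covariate the value was -0.18 (adjusted p = 0.747).

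Has3, an isoform common in epithelia, was low in all libraries and lower in cut tendon. It stood at 5.43, 4.24 and 5.08 CPM across the sham libraries, and at 1.64, 1.18 and 3.76 CPM across the cut libraries. The groups did not overlap, but cut 3 was again close to sham. The log2 fold change of -1.16 ± 0.43 was not called (adjusted p = 0.0806 by edgeR), while it was with the replicate block (-1.31, adjusted p = 0.0484) and without cut 3 (-1.79, adjusted p = 0.000912). With the muscle covariate it was -0.29 (adjusted p = 0.53). Of the annotated exon bases of Has3, 5.52% are shared with Chtf8 on the other strand. Chtf8 had 997 to 2118 counts per library against 35 to 133 of Has3, so Has3 is uncertain unless the counting used strand.

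Per length, the synthases together summed to 6.71, 6.9 and 5.73 FPKM in the sham libraries and to 16.8, 17.1 and 7.79 FPKM in the cut libraries. All cut-tendon sums were above all sham sums (two-sided exact permutation p = 0.1, n = 3 per group, and no smaller p is possible in this design). Has2 made up 53.6 to 63% of the synthase FPKM in sham and 53.7 to 71.6% in cut tendon, ranges that overlap (difference of means 3.08 percentage points, exact permutation p = 0.6, n = 3). Has1 held 24.4 to 34.3% in sham and 21.7 to 44.8% in cut tendon (difference 5.11 points, exact permutation p = 0.6, n = 3). That difference was 1.96 points without sham 3, 0.641 without cut 1, 2.48 without cut 2 and 12.2 without cut 3. The share of Has3 was 12.2, 9.11 and 12.6% in the sham libraries and 1.57, 0.981 and 6.74% in the cut libraries, with no overlap (difference -8.18 points, exact permutation p = 0.1, n = 3). These shares add up to the whole in each library, so they are not independent of each other.

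On the breakdown side, Cemip had the largest fold change of the 9 members. Its levels were 15.2, 11.7 and 3.7 CPM in sham libraries 1 to 3 and 187, 262 and 75.6 CPM in cut libraries 1 to 3. The lowest cut-tendon library lay well above the highest sham library. The log2 fold change was 4.10 ± 0.68 (SE, n = 3 per group; adjusted p = 0.00886 by edgeR). Cemip was called without each library in turn (log2 3.66 to 4.50) and with the muscle covariate (2.77, adjusted p = 0.00828). Ordered by FPKM among all genes, Cemip held places 11508 to 13243 in the sham libraries and places 2875, 2145 and 6790 in the cut libraries.

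The classical hyaluronidases were nearly level. Hyal2 stood at 12.9, 12.8 and 16 CPM across the sham libraries and 14.5, 15.7 and 13.8 CPM across the cut libraries, a log2 fold change of 0.08 ± 0.14 (adjusted p = 0.68 by edgeR). Hyal1 stood at 9.64, 9.46 and 7.06 CPM and 8.93, 7.26 and 5.07 CPM in the same order, a log2 fold change of -0.30 ± 0.25 (adjusted p = 0.369 by edgeR). In both genes the groups overlapped. Hyal1 shares 50.8% of its 3777 exon bases in GENCODE with Naa80 on the same strand. The gene length behind its FPKM was 2179 bases, so the shared part in the annotation used for counting is not known. The tables list Naa80 as Nat6, with 373 to 438 counts per library against 151 to 277 of Hyal1. The value of Hyal1 is therefore uncertain where shared reads were divided between them.

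Cemip, Hyal1 and Hyal2 together held 11.6, 11 and 10.1 FPKM in the sham libraries and 28.6, 31.2 and 14 FPKM in the cut libraries. The share of Cemip in that sum was 11.4, 9.09 and 2.99% in sham and 60.4, 68.6 and 43.5% in cut tendon. The log2 ratio of this sum to the summed synthases was 0.786, 0.673 and 0.821 in the sham libraries and 0.772, 0.869 and 0.846 in the cut libraries. The ratio thus differed little between libraries, although both sums were higher in cut tendon (difference of means 0.0689, exact permutation p = 0.3, n = 3). Without Cemip in the sum, the log2 ratio of Hyal1 and Hyal2 to the synthases was 0.535 to 0.778 in sham and -0.563, -0.801 and 0.023 in the cut libraries (difference -1.09, exact permutation p = 0.1, n = 3). In CPM, which is not corrected for length and so weights the long Cemip transcript more, the difference of the ratio with Cemip was 1.54. These are transcript sums and not enzyme activities.

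**Figure D2:**
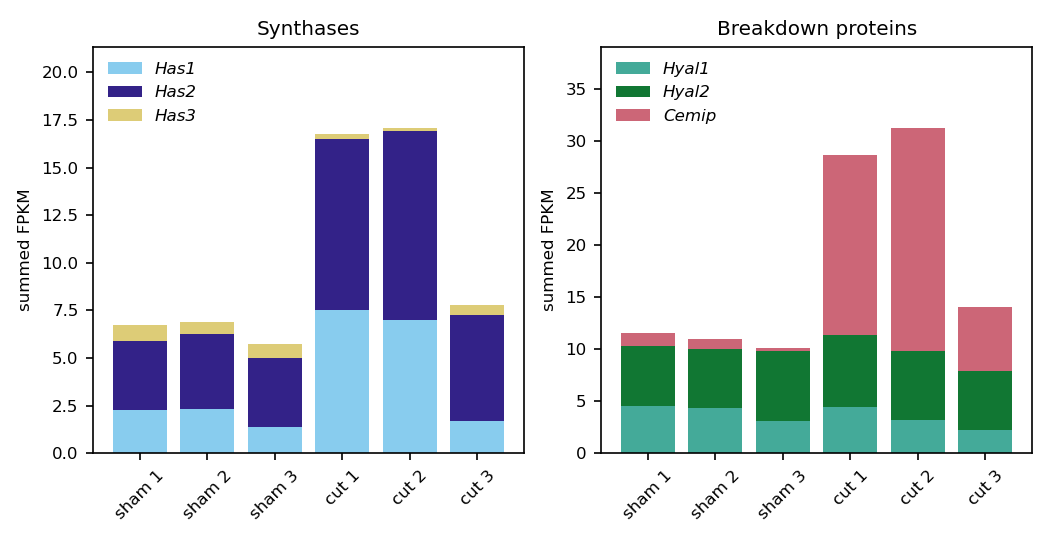
Summed FPKM of the synthases (left) and of Hyal1, Hyal2 and Cemip (right) in each library, stacked by gene on axes that start at 0. Both stacks are highest in cut 1 and cut 2, and Cemip makes up 43.5 to 68.6% of the right stack in cut tendon against 2.99 to 11.4% in sham.

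Cd44, a hyaluronan receptor of leukocytes, fibroblasts and many other cells, stood at 63.3, 63.9 and 56.8 CPM in sham libraries 1 to 3 and at 206, 240 and 111 CPM in cut libraries 1 to 3. The sham libraries were close together and all cut-tendon libraries lay above them. The log2 fold change was 1.60 ± 0.29 (SE, n = 3 per group; adjusted p = 0.0108 by edgeR). Leaving out sham 2 ended the call (log2 1.61, adjusted p = 0.0521), and with the muscle covariate it held at 0.82 (adjusted p = 0.00706). The table counts the whole gene, so splice forms of Cd44 are not told apart.

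Tnfaip6, whose protein is induced by inflammatory cytokines, stood at 6.13, 7.42 and 4.96 CPM across the sham libraries and at 32.3, 38.8 and 11 CPM across the cut libraries. The groups did not overlap, although cut 3 was far below cut 1 and cut 2. The log2 fold change was 2.15 ± 0.46 (SE, n = 3 per group; adjusted p = 0.0178 by edgeR). The call was lost without sham 1 (log2 2.14), sham 2 (2.28), sham 3 (1.98) or cut 1 (2.02), with adjusted p of 0.0579 to 0.071. With the muscle covariate it was lost at 0.78 (adjusted p = 0.0542).

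Promoter sequences are shown for Tnfaip6 and Cd44, which rose, and for Hyal1, which was not called, so that a reader can compare them. RefSeq windows of GRCm38.p6 matched 6 of the 9 genes: Has1, Hyal1, Hyal2, Cd44, Cemip and Tnfaip6. The 250 bases before each start were searched on both strands for the TATA box TATAAA, the AP-1 motif TGANTCA, the NF-kappaB-type motif (GGG and TTCC with any 3 bases between), the GC box GGGCGG, the CCAAT box and the CACCC box. Each sequence below is 5′ to 3′ on the gene's strand, holds no annotated exon, and has motif matches in capitals. The Tnfaip6 stretch lies on the plus strand at chr2:52037863-52038008, from 250 to 105 bases before the start. That of Cd44 lies on the minus strand at chr2:102901670-102901915, and that of Hyal1 on the plus strand at chr9:107576700-107576926.
Tnfaip6: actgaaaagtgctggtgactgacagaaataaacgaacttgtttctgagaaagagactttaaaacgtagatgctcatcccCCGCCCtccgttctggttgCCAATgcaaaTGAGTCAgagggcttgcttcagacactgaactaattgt
Cd44: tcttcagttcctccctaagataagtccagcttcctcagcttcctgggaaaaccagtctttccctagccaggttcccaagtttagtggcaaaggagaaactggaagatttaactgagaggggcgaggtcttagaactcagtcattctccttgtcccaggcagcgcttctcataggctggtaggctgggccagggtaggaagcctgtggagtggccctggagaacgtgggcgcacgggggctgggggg
Hyal1: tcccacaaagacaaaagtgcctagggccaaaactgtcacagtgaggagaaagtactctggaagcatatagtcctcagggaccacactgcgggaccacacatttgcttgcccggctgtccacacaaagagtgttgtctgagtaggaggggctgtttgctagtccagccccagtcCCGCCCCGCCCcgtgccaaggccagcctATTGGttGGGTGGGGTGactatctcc
Of the 6 windows, that of Tnfaip6 alone had an AP-1 match, 142 bases before its start, a motif found in 6.75% of 32851 promoters of the same length. It also held a GC box 171 bases before the start (32.7% of promoters) and a CCAAT box at 152 and 81 bases (33.8%), the nearer of which lies beyond the printed stretch. Cd44 held none of the 6 motifs in this window. Hyal1 held 2 GC boxes that overlap by a base, 1 CCAAT box and 2 CACCC boxes, the last a motif in 52% of promoters. Cemip alone had a TATA box (12.4%), 29 bases before the start that its window uses, and that match lies inside the gene's annotated span. The searched bases of Has1 and Hyal2 lie wholly inside the annotated genes, so the windows of these 3 genes use internal starts. None of the 6 windows held the NF-kappaB-type motif (4.65%). A match is a run of letters and not a shown binding site.

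Prg4, the lubricin gene, had the highest FPKM of the 9 members in 5 of 6 libraries and was uneven between replicates. It stood at 1059, 821 and 322 CPM in sham libraries 1 to 3 and at 406, 256 and 50 CPM in cut libraries 1 to 3. Sham 3 lay below cut 1, so the groups overlapped. Ordered by FPKM among all genes, Prg4 held places 116, 186 and 619 in the sham libraries, and places 356, 708 and 4475 in the cut libraries. Prg4 made up 71 to 87.9% of the summed FPKM of the 9 members in sham and 18.5 to 48.2% in cut tendon.

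The log2 fold change of Prg4 was -1.63 ± 0.78 (SE, n = 3 per group) and did not pass the threshold (adjusted p = 0.146 by edgeR). Each cut-tendon library was below the sham library of the same number. The labels give no pairing by number, however, and sham 3 lay below cut 1. With the replicate block Prg4 was called lower (-1.91, adjusted p = 0.0211). It was also called lower with the muscle covariate (-3.77, adjusted p = 0.0268), while without cut 3, the library lowest in Prg4 and the cut-tendon library highest in muscle counts, it was -1.15 (adjusted p = 0.0686). Without cut 1 it was -2.26 (adjusted p = 0.13), and without each other library -2.02 to -1.27, with no call. Of its annotated exon bases 4.77% are shared with Tpr on the other strand, which had 5430 to 6368 counts per library.

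Other fits called other numbers of members. With the replicate block 5 were higher (Has1 added) and 2 lower (Has3 and Prg4), beside 21.7% and 17.3% of tested genes. DESeq2 called the same 7 genes in the same directions, beside 23.3% and 19.2% of genes, and limma-voom called 4 higher and 1 lower (Has3), beside 20.0% and 15.0%. With the muscle covariate 3 members were higher (Has2, Cd44 and Cemip) and 1 lower (Prg4), beside 10.9% and 5.16%. Without cut 3, 5 were higher and 1 lower (Has3), beside 28.5% and 29.7%. Leaving out another library lowered the share of all genes called: 10.6% higher and 4.55% lower without sham 1, 7.39% and 2.95% without sham 2, and 9.19% and 5.40% without sham 3. The shares were 10.8% and 4.68% without cut 1, and 12.6% and 6.05% without cut 2. Beside these, 2, 1 and 2 members were higher without sham 1, 2 and 3, and 3 and 4 without cut 1 and 2, with 0 lower by edgeR each time. On log2 FPKM, limma called 4 members higher and 1 lower with a pseudocount of 1, beside 18.2% and 15.1% of genes, and the same number with 0.1, beside 18.3% and 15.0%. Cemip was called higher under each of the 17 alternatives, and Hyal1 and Hyal2 under none.

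**Figure D3:**
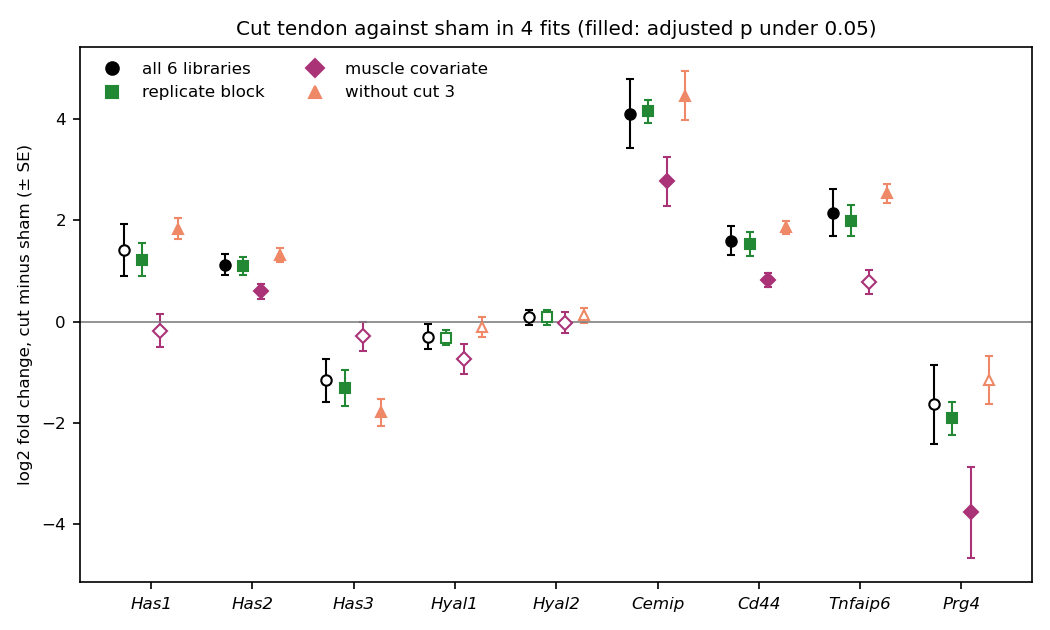
Log2 fold change of cut tendon against sham (± SE) for the 9 genes in 4 edgeR fits; filled symbols have an adjusted p under 0.05. Cemip, Cd44 and Has2 lie above 0 and are filled in all 4, Has1 lies at 1.41 with all libraries and at -0.18 with the muscle covariate, and Prg4 lies between -3.77 and -1.15.

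**Figure D4:**
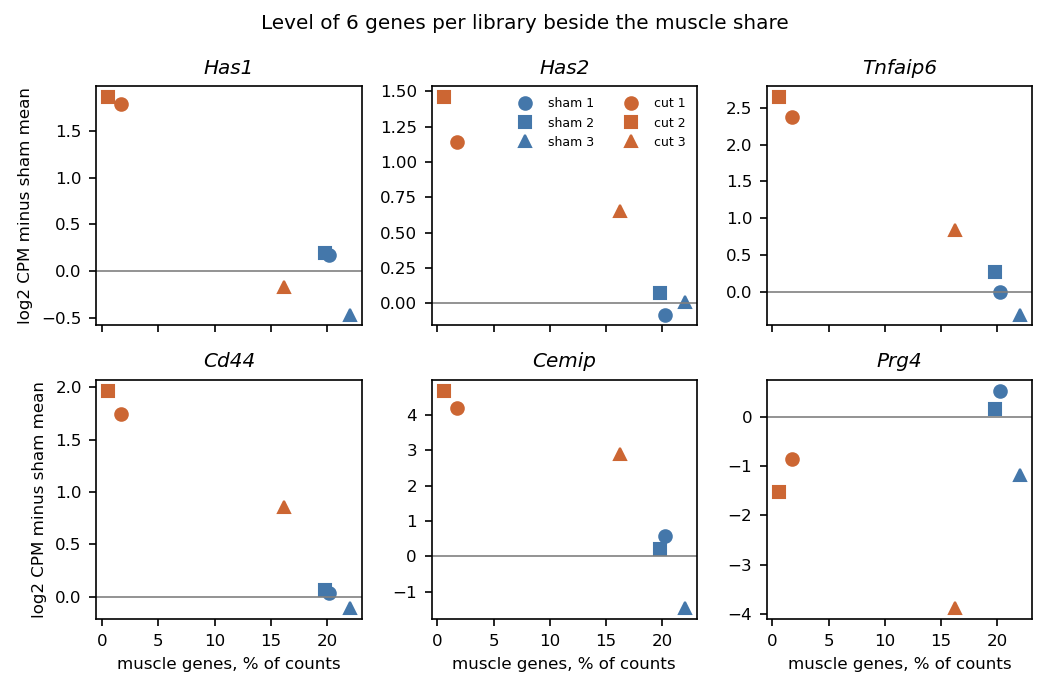
Log2 CPM of 6 genes in each library, minus the sham mean, against the percent of counts taken by the 30 muscle genes; colours are groups and symbols replicate numbers. Cut 3, at 16.2% muscle counts, lies between sham and the other cut-tendon libraries for Has2, Cd44, Cemip and Tnfaip6, within the sham range for Has1, and lowest of all for Prg4.

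Likeness between members was described over the 6 libraries, which share their groups and muscle content. Log2 CPM of Cd44 and Has2 had a Pearson r of 0.991 and that of Cd44 and Tnfaip6 0.99, while Has3 ran opposite to Tnfaip6 at -0.984. Hyal1 and Prg4 had an r of 0.969, each being lowest in cut 3 and, among the sham libraries, lowest in sham 3. Of about 11293 genes with a mean of at least 5 CPM, those most like Has2 were Anxa2 (0.9997), Qsox1 (0.9992) and Apln (0.9991), and 1576 genes reached 0.95. Most like Cd44 were Adss (0.9993), Sh3pxd2a (0.9993) and Kdelc1 (0.9992). For Cemip these were Cbx6 (0.9997), Dkk3 (0.9994) and Zfp422 (0.9986), and for Tnfaip6 Slc39a14 (0.9994), Sbno2 (0.9987) and Shc1 (0.9984). Has1 was nearest to Sf3b1 (0.9984), Tbc1d24 (0.9964) and Cnksr3 (0.9957), and Has3 to Oma1 (0.9979), Gpatch11 (0.9973) and Sp4 (0.997). Among the genes nearest to Prg4 were Fbrs (0.9966) and Atg16l2 (0.9916), with 63 genes at 0.95 or more. Hyal1 was nearest to Pan2 (0.9879), Syne3 (0.9803) and Nvl (0.979), and genes near Hyal2 included Ubqln2 (0.9963) and Vwa9 (0.9836).

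Genes that supply the UDP-sugars from which hyaluronan is built went both ways. Of 13 genes, all tested, 6 were higher, 2 lower and 5 not called (median log2 0.40). Gfpt1, the entry enzyme of the hexosamine pathway, rose by log2 0.90 ± 0.16, from 77.7 ± 6.34 to 145 ± 23.6 CPM (mean ± SD, n = 3), and lost its call without sham 2 (0.85). Uap1l1, a relative of the enzyme (Uap1) that makes UDP-N-acetylglucosamine, rose by 1.39 ± 0.24, and the gene listed as Pgm1 by 1.21 ± 0.25. The 5 genes not called were Uap1 itself (log2 0.15), Gfpt2 (-0.14), Pgm3 (0.40), Gpi1 (-0.74) and Pgm2 (-0.79). Pgm2 stood at a mean of 381 CPM in sham, against 14.8 CPM for Pgm1. The call of Pgm1 was lost without any sham library or cut 1 (log2 1.12 to 1.24) and with the muscle covariate (0.54). Ugdh, which makes UDP-glucuronic acid, rose by 0.96 ± 0.29 (adjusted p = 0.0473 by edgeR). It stood at 46, 66.1 and 50.8 CPM in the sham libraries and 116, 135 and 65.3 CPM in the cut libraries, so that cut 3 lay just below sham 2. Its call was lost on leaving out any library but cut 3 (0.75 to 1.10) and with the muscle covariate (0.22). It was lost too with DESeq2 size factors in edgeR, no filter on low counts, library sizes without muscle genes, limma-voom and limma on log2 FPKM with either pseudocount (log2 0.88 to 0.95, adjusted p of 0.0512 to 0.0637).

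Ugp2, which makes UDP-glucose, fell by 1.81 ± 0.48 on the log2 scale, and Hk2, a hexokinase abundant in muscle, fell by 2.26 ± 0.64. Ugp2 stood at 561, 695 and 818 CPM in the sham libraries and 125, 115 and 349 CPM in the cut libraries, nearest to sham in the cut library with the high muscle share. Leaving out any library but cut 3 ended both calls (log2 -1.95 to -1.55 for Ugp2 and -2.40 to -1.90 for Hk2). Both genes were still called lower with the muscle covariate, at log2 -0.94 for Ugp2 and -1.13 for Hk2. With 1 library left out at a time the list held 1 to 7 higher and 0 to 4 lower genes, and with the muscle covariate 2 higher and 3 lower.

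Other enzymes that take hyaluronan apart were mostly higher. Of 10 genes listed, 9 were in the tables and 5 were tested, of which 4 were higher and 1 was not called. Of the lysosomal exoglycosidase genes, Gusb rose by log2 1.15 ± 0.16, from 27.6 ± 2.07 to 61.3 ± 10.2 CPM, and Hexa by 1.10 ± 0.16. Both were called with each library left out in turn. Tmem2, a cell-surface relative of Cemip, rose by 0.71 ± 0.19 (adjusted p = 0.0346 by edgeR), from 55.6 ± 3.09 to 91 ± 21.3 CPM. Its call was lost on leaving out any library but cut 3 (0.57 to 0.75), with the muscle covariate (0.24) and by limma on log2 FPKM with a pseudocount of 1 (0.63) or 0.1 (0.68). Hyal3, next to Hyal1 on the chromosome, stood at 0.369 to 1.06 CPM and was not called (log2 -0.75 ± 0.37).

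Of 7 other hyaluronan receptors, 3 were higher, 1 lower and 3 not called (median log2 0.52). Hmmr, a hyaluronan-binding protein of the mitotic spindle, rose by log2 3.57 ± 0.42 from a low level, 0.338 ± 0.0638 to 4.05 ± 1.87 CPM, and 7 of 7 proliferation markers were called higher beside it. Layn (layilin) rose by 1.48 ± 0.25 and Tlr2, a receptor that hyaluronan fragments are reported to engage, by 1.47 ± 0.24. Stab2, a clearance receptor of sinusoidal endothelium, fell by 2.08 ± 0.43, and 4 of 9 endothelial markers were also lower. Leaving out sham 2 or sham 3 ended the call of Stab2 (-2.18 and -1.91).

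Proteins that bind hyaluronan in the matrix had the highest median of the 7 companion lists. Of 10 genes 8 were tested, with 6 higher, 1 lower and 1 not called (median log2 4.39). Acan, the cartilage proteoglycan aggrecan, and Hapln1, the link protein that fixes it to hyaluronan, rose by 6.81 ± 0.74 and 5.37 ± 0.62. The chondrocyte markers, a list that includes Acan and Hapln1 themselves, were higher in 11 of 11 tested genes. That list summed to 133 to 325 CPM in sham and 3963 to 15042 CPM in cut tendon. Acan alone gave 1921, 3100 and 916 CPM in cut libraries 1 to 3, so the list is not separate from these genes. Ptx3, a pentraxin that binds TSG-6, rose by 4.30 ± 0.60, from 0.94, 0.568 and 1.79 CPM in the sham libraries to 23.1, 32.2 and 9.93 CPM in the cut libraries. Hapln4, a link protein known from brain, rose by 4.52 ± 0.62, and Ncan, a proteoglycan of nervous tissue, fell by 2.56 ± 0.51, both at under 5 CPM in every library. Vcan (versican) rose by 1.31 ± 0.32. Calls were lost without sham 2 or sham 3 for Ncan (-2.68 and -2.26), and without sham 2, sham 3, cut 1 or cut 2 for Vcan (1.07 to 1.31). Both were also lost with the muscle covariate, Ncan at -2.43 (adjusted p = 0.0945 by edgeR) and Vcan at 0.74 (adjusted p = 0.106).

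The heavy chains that TSG-6 transfers to hyaluronan come from inter-alpha-inhibitor, a protein made mainly in liver. Of 6 genes for its chains and their relatives 4 were tested, with 1 higher, 1 lower and 2 not called (median log2 -0.65). Itih4 fell by 1.46 ± 0.32 and Itih3 rose by 0.89 ± 0.26, each at under 2 CPM in every library. Leaving out any library ended the call of Itih3 (0.72 to 0.96), and leaving out sham 1, sham 2, cut 1 or cut 2 that of Itih4 (-1.52 to -1.28). The call of Itih3 was also lost with the replicate block (0.89, adjusted p = 0.0603 by edgeR) and with no filter on low counts (0.86). With the muscle covariate Itih3 stood at 0.83 and Itih4 at -1.14, and no gene of the list was called. Itih5, the most abundant of the 4 at 207 to 259 CPM in sham and 66 to 150 CPM in cut tendon, stood at -0.96 ± 0.32 and was called lower without cut 3 (-1.14) and by DESeq2 (-0.97).

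Among 12 partners, sheddases and ligands of CD44, 8 were higher, 1 lower and 3 not called (median log2 0.95). Mmp14, a membrane protease that cuts CD44, rose by log2 4.25 ± 0.43, from 92.2 ± 9.9 to 1752 ± 724 CPM. Adam17, another sheddase, rose by 0.99 ± 0.13 and Lgals9, a galectin, by 0.80 ± 0.11. Spp1 (osteopontin), a CD44 ligand, rose by 3.03 ± 0.70, and Msn (moesin), which ties CD44 to the actin cortex, by 1.45 ± 0.26. Calls were lost without any sham library or cut 1 for Spp1 (2.62 to 3.32) and without sham 2 for Msn (1.45). With the muscle covariate Spp1 stood at 1.43 (adjusted p = 0.0841 by edgeR) and was not called. Nf2 (merlin) fell by 0.44 ± 0.13, a call lost on leaving out any library but cut 3 (-0.46 to -0.38), with no filter on low counts (-0.46) and with the muscle covariate (-0.27). The list held 3 to 8 higher genes with 1 library left out at a time, and 4 with the muscle covariate.

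In the list around lubricin, 5 of 10 tested genes rose, 1 fell and 4 did not pass the threshold (median log2 1.24). Foxo1, a transcription factor reported to sustain Prg4 in joint cartilage, fell by 0.92 ± 0.14, from 117, 132 and 125 CPM in the sham libraries to 70.7, 70.5 and 56 CPM in the cut libraries. The groups did not overlap, and Foxo1 was called lower under each of the 17 alternatives. Foxo3 (0.43 ± 0.17) and Creb5 (0.07 ± 0.30), of the same list, did not fall and were not called. Ctss and Ctsb, cathepsin proteases, rose by 2.52 ± 0.23 and 1.35 ± 0.24, and Lgals3, a galectin that binds lubricin, by 2.24 ± 0.29. Fn1 (fibronectin) rose by 3.65 ± 0.80. Calls were lost without sham 1 or sham 2 for Ctsb (1.24 and 1.35), and without any sham library or cut 1 for Fn1 (3.40 to 3.81). With 1 library left out at a time 2 to 8 genes of the list were higher.

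Markers of the lining cells that secrete lubricin did not move together. Of 11 such genes, which include Has1 and Prg4, 4 rose and 7 were not called (median log2 0.71). Pdpn (podoplanin), also found on activated fibroblasts, rose by 2.12 ± 0.22, from 17 ± 1.44 to 73.9 ± 18.7 CPM. Clic5, a chloride channel protein, stood at 260, 310 and 336 CPM in the sham libraries and 42.7, 14.1 and 199 CPM in the cut libraries, again nearest to sham in cut 3 (log2 -1.83 ± 0.88, adjusted p = 0.146 by edgeR). Without cut 3 Clic5 was called lower (-3.41). Summed over the list, levels were 919 to 1604 CPM in sham and 663 to 905 CPM in cut tendon. Without Prg4 the sums were 545, 593 and 597 CPM in the sham libraries and 499, 497 and 613 CPM in the cut libraries, which overlap. Clic5 alone made up 260, 310 and 336 CPM of the sham sums and 42.7, 14.1 and 199 CPM of the cut sums. The overlap therefore says little about the other markers, of which 4 were called higher. Whether the number of lining cells differed was not tested.

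**Figure D5:**
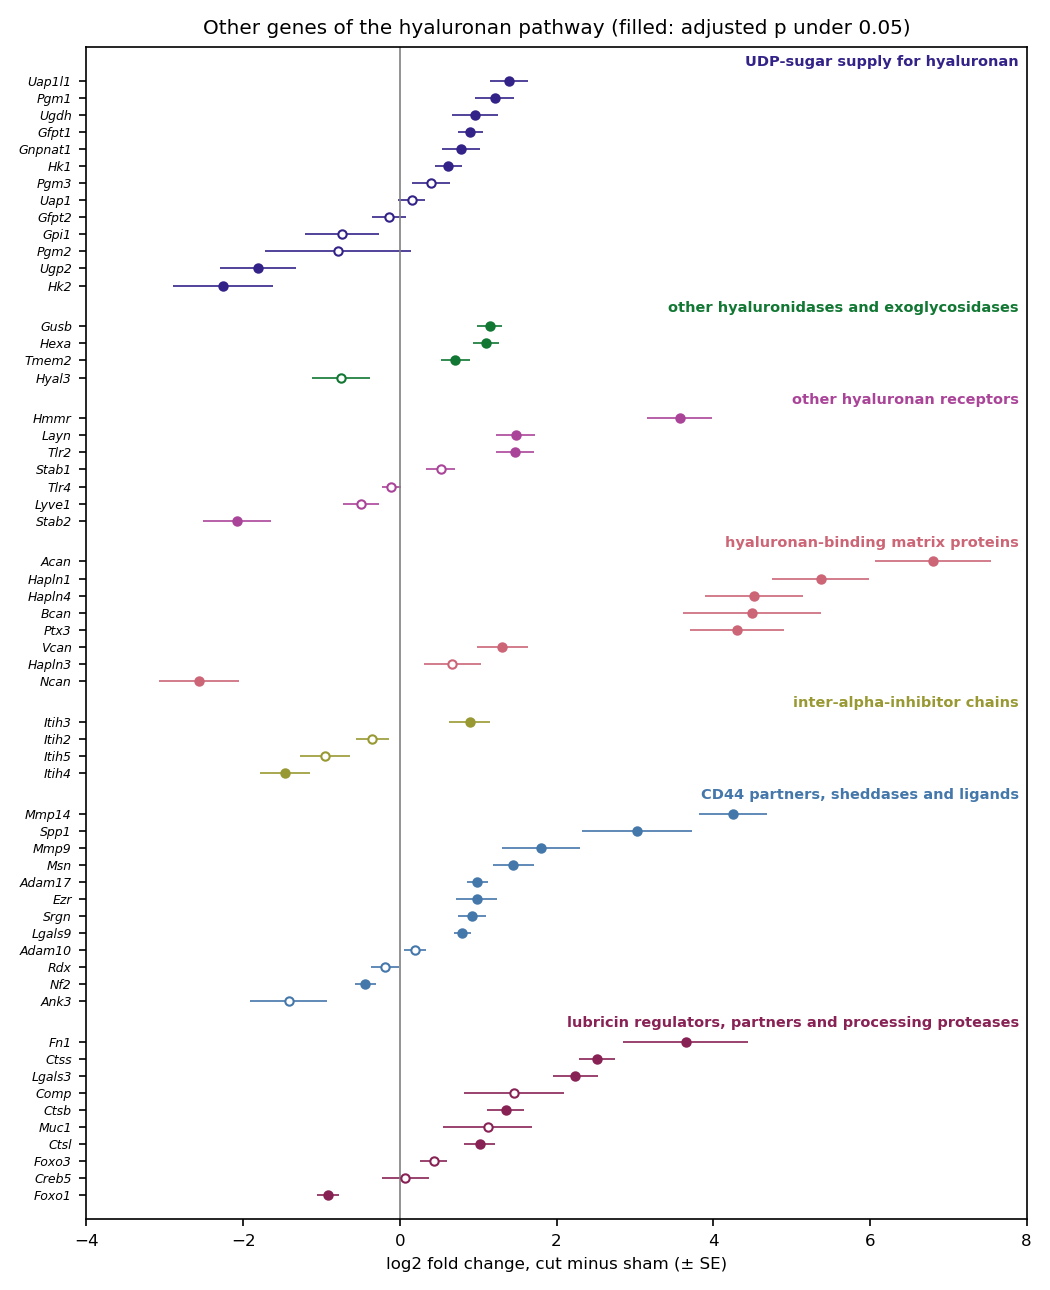
Log2 fold change of cut tendon against sham (± SE) for tested genes of 7 other lists around hyaluronan, CD44 and lubricin; filled points have an adjusted p under 0.05. Among the called genes Acan (6.81) and Hapln1 (5.37) lie farthest to the right, and Ncan (-2.56), Hk2 (-2.26) and Stab2 (-2.08) farthest to the left.

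In GRCm38.p6 coordinates, Has1 lies on chromosome 17 at 17833691 to 17855589, Has2 on chromosome 15 at 56665627 to 56694546 and Has3 on chromosome 8 at 106870242 to 106882902. Hyal2 (chromosome 9, 107567873 to 107572778) and Hyal1 (107576950 to 107581699) are neighbours. Cd44 lies on chromosome 2 at 102811141 to 102901669, Tnfaip6 on the same chromosome at 52038113 to 52056681, Cemip on chromosome 7 at 83932857 to 84086693 and Prg4 on chromosome 1 at 150449412 to 150466221. Has2 shares 4.3% of its exon bases with Has2os on the other strand, and Hyal1 4.21% with Hyal3 on the same strand. The counts are per gene, so no exon or UTR is resolved.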

How the data were processed

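Total RNA depleted of ribosomal RNA was made into strand-specific libraries (dUTP method), per the labels' protocols. Per the submitters' processing notes, Trimmomatic, HISAT2 and the build GRCm38.p6 were used. The deposited tables hold whole-number counts per gene and FPKM for 21878 genes, made by the authors. The counting program and its strand setting are not given in the sources used here. FPKM equals counts per library total and per fixed gene length.

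From the counts, edgeR 4.0.16 (R 4.3.3) was run with filterByExpr, TMM scaling and the quasi-likelihood test with Benjamini-Hochberg adjustment, which left 14561 genes, called at an adjusted p under 0.05. DESeq2 1.42.0 and limma 3.58.1 (voom, and log2 of FPKM plus a pseudocount of 1 or 0.1) were alternatives, beside other scalings and filters, a replicate block, a muscle covariate (log2 CPM of the muscle list) and each library left out. FPKM served for comparisons between genes. Exact permutation tests used scipy 1.17.1. The code was tested on simulated data. Total counts per library, 23916839 to 31346730, make 1 count 0.0319 to 0.0418 CPM before TMM scaling.

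Same-numbered sham and cut libraries deviated together from their group means (correlations 0.259, 0.13 and 0.409), each above 0.1, the level set for taking the numbers as pairs, and the labels give no shared source. Sham 1 with cut 2 (0.244) and sham 2 with cut 1 (0.115) correlated about as much, so number 3 alone stood apart. The numbers were thus not shown to be pairs. The members and gene lists were chosen with earlier results of these data known. From each companion list the 3 called genes with the smallest p in each direction were named, and for each member the 3 genes with the highest Pearson r. A few results these rules would name are not reported here. Ugdh, Tmem2, Hyal3, Ptx3, Vcan, Itih5, Spp1, Msn, Fn1, Pdpn and Clic5 were named, and the lining sum without Prg4 was added, after their values were seen. Uap1, Gfpt2, Pgm3, Gpi1, Pgm2, Foxo3 and Creb5, none of them called, were also named outside the naming rules. Promoter windows and gene positions are RefSeq's (GRCm38.p6), and exon overlaps are from GENCODE.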

Additional observations from a re-analysis of the deposited data

How the results depend on the processing

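Cemip was called higher under each of the 17 alternatives, and Hyal1 and Hyal2 under none. Other scalings in edgeR, no filter on low counts, a stricter filter and library sizes without muscle genes left the same 4 members called. With the replicate block, which pairs libraries by number, Has1 (1.22), Has3 (-1.31) and Prg4 (-1.91) passed the threshold, so 2 members were called lower; it changed no other member's call. DESeq2 also called these 3 (log2 1.42, -1.18 and -1.61), with 2 lower. Has3 was the 1 member called lower by limma-voom (-1.33) and by limma on log2 FPKM with a pseudocount of 1 (-0.39) or 0.1 (-1.06). With the muscle covariate Has1 (-0.18) and Hyal2 (-0.02) changed sign without a call, Tnfaip6 lost its call (0.78) and Prg4 was the 1 called lower (-3.77); the cause was not tested. Leaving out 1 library at a time gave log2 ranges of 1.13 to 1.83 for Has1, 0.92 to 1.31 for Has2, -1.79 to -0.87 for Has3, 1.38 to 1.86 for Cd44, 1.82 to 2.53 for Tnfaip6 and -2.26 to -1.15 for Prg4, with 1 to 5 members higher (1 without sham 2, 5 without cut 3) and 0 to 1 lower. The Has2 share of synthase FPKM then differed by -2.19 to 6.78 points, below 0 without cut 3, and the Has1 share by 0.641 to 12.2 points. In CPM the Has3 share differed by -13.5 points and the log2 ratio of breakdown to synthesis by 1.54, which is unscaled by length; in FPKM that ratio differed by -1.09 without Cemip and -0.0874 with Tmem2 added. Depth limits Has3 most, at 35 to 133 counts per library.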
